A study of Caenorhabditis elegans with 25 samples.

Results

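The polyadenylated RNA of wild-type day 1 adult Caenorhabditis elegans was measured in 5 sequencing libraries of strain N2, taken from a series of 25 libraries. The members were chosen by strain label alone, and no value from another genotype enters the results. N2 is the standard laboratory wild type, here the background control of a study of the neuropeptide gene flp-17 and its receptor gene egl-6. Each library came from 500 to 600 whole, age-synchronized animals fed the bacterial strain OP50-1, so each value is an average over a pool of animals and over all their tissues. The animals were washed and put on fresh plates 24 hours before collection. Replicate 1 was labelled as batch 1 and replicates 2 to 5 as batch 2, so batch 1 holds a single N2 library, and batch and library cannot be told apart for it. The labels do not say whether the replicates came from separate cultures, so the spreads below may be partly technical.

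The adult hermaphrodite of this species fertilizes its own eggs. Its gonad makes sperm first and then switches to oocytes, which are filled with maternal RNA and with yolk protein that the intestine makes from the vit genes and that oocytes take up through a receptor encoded by rme-2. Its body is covered by a cuticle of collagens, built anew at each larval molt, and the adult has its own set of cuticle collagen genes. Poly(A) selection removes most ribosomal RNA and most replication-dependent histone mRNA, neither of which carries a long poly(A) tail.

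The libraries held 42696185, 67059902, 45449614, 52197078 and 57737732 counts for replicates 1 to 5. At this depth 3 counts correspond to between 0.0445 and 0.0709 CPM, a count per 1000000 counts of its library, and intervals from counting cover counting error only. The scaling factors of the 5 libraries lay between 0.988 and 1.02. The rank order of genes was alike in all pairs of libraries, with a Spearman correlation across genes from 0.987 between replicates 2 and 3 to 0.998 between replicates 4 and 5. No pair agreed within sampling noise, since the lowest chi-square per gene was 9.01, between replicates 4 and 5. The first principal component, with 53.2% of the variance, placed replicates 1 and 2 on one side and replicates 3 to 5 on the other, with replicate 2 farthest out, and the second, with 32%, set replicate 1 apart.

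Marker genes were compared with the labelled stage. The 6 vit genes and col-19, an adult cuticle collagen, were among the 76 most abundant genes, whereas col-7 and col-62, also listed as adult markers, reached means of only 0.368 and 1.46 CPM. Summed over 6 oocyte markers, the level was 3694 ± 355 CPM (SD, n = 5). The male markers cwp-1, cwp-2, lov-1 and pkd-2 summed to between 0.0347 and 0.473 CPM. The 5 zygotic markers of early embryos summed to 3.69 CPM, from med-1 at 0 in all libraries except replicate 4, through end-3, which specifies the gut lineage, at 0.466 CPM, to pes-10 at 2.67 CPM. In the wider list of 48 early zygotic genes 16 reached 1 CPM, led by sdz-27 at 33.0 CPM and vet-2 at 20.8 CPM. The larval hypodermal collagens dpy-7 and rol-6 stood at 0.576 and 0.190 CPM, while the 4 molting markers summed to 32 CPM, most of it from the protease gene nas-37 at 20.9 CPM.

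Of 42532 genes in the table, 19834 had a count in at least 1 N2 library, 15595 had one in all 5 and 22698 were at 0 in all 5. A mean of at least 1 CPM was reached by 10566 genes, of which 10458 were protein-coding, out of 19882 protein-coding genes listed. The genes below 1 CPM together held 0.178% of the counts. Most RNA came from few genes. The 74 most abundant genes held 25% of all counts, 488 genes held 50%, 1886 held 75% and 7635 held 99%. The 10 most abundant genes alone held 10.9%. At 1000 CPM or more stood 125 genes, of which 52 encode cytosolic ribosomal proteins, 15 cuticle collagens, 6 yolk proteins and 5 oocyte and germline RNA-binding proteins, while 26 were in none of the 40 gene lists examined. Of these lists 39 had members, and that of mitochondrially encoded mRNAs matched no gene of the table.

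**Figure D1:**
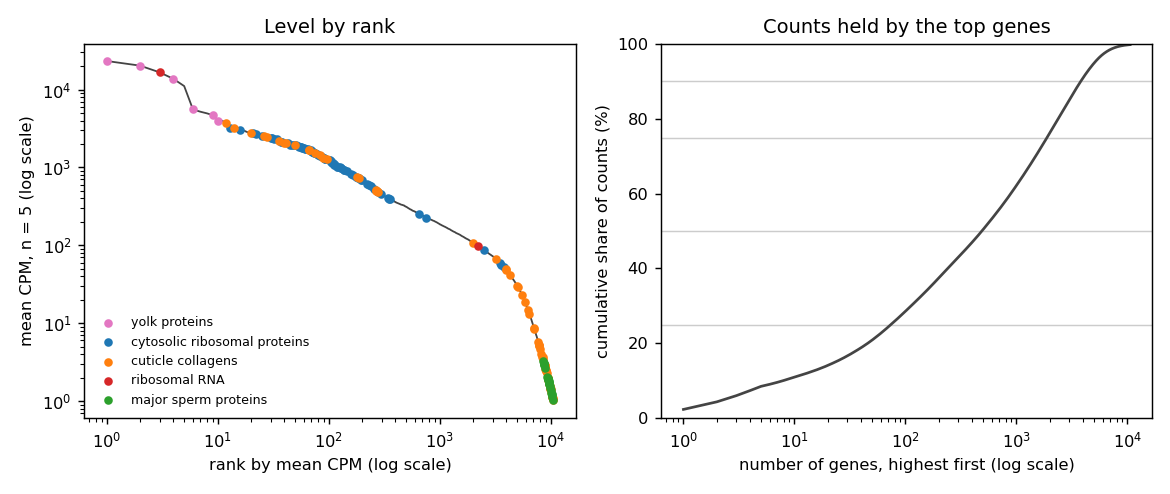
Left, mean CPM over 5 N2 libraries against rank for the 10566 genes of at least 1 CPM, both axes on a log scale, with 5 gene lists coloured. Right, cumulative share of counts in percent against the number of genes, highest first; the curve crosses 50% at 488 genes, and the vit genes sit at the left end of the ranking while the major sperm protein genes sit at the right end.

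Counts depend on transcript length, and levels between genes are therefore also given in TPM, which divide counts by the summed exon length before scaling to 1000000. On that scale 261 genes held 50% of the total, and 71 genes were in the top 100 of both scales. Across the genes of at least 1 CPM the Spearman correlation between the 2 scales was 0.920, as a description. Protein-coding genes took 97.9 ± 1.27% of counts and ribosomal RNA 1.67 ± 1.29% (SD, n = 5). None of the 13701 piRNA genes and none of the 261 miRNA genes, whose mature products carry no poly(A) tail, reached 1 CPM.

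Yolk held the second largest share of any list, from few genes. The 6 vit genes took 6.66%, 6.22%, 7.98%, 7.72% and 7.16% of counts in replicates 1 to 5. Replicate 3 was the highest and replicate 2 the lowest, and all 6 genes were highest in replicate 3. The vit genes are over 4 kb, and most genes of that length did the same. Of all protein-coding genes of 4 kb or more and at least 10 CPM, 92.2% were highest in replicate 3 and 96.4% lowest in replicate 2. The most abundant gene of all was vit-6 (chromosome IV, 8261157 to 8266459 in ce11), at 22322, 20514, 26491, 24931 and 21988 CPM, a mean of 23249.5 ± 2412 (SD, n = 5). Second came vit-2 (chromosome X, 5101042 to 5106169) at 20269 ± 2413 CPM, followed among the yolk genes by vit-5 at 13709, vit-1 at 5547, vit-3 at 4702 and vit-4 at 3996 CPM. The vit genes are long, and per length they held 1.89% of the TPM. Members of this family resemble each other in sequence, so the split of reads among them is uncertain, while their sum is less so. In RNA from whole animals, fewer cells of a type and less RNA per cell cannot be told apart.

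Genes of the oocyte and the eggshell were also abundant. The list of 45 oocyte and germline RNA-binding proteins and related oocyte genes held 2.25 ± 0.159% of counts, and all 45 exceeded 1 CPM. Its leading member was cey-2, a cold-shock domain protein that binds maternal mRNA, at 2888 ± 220 CPM (SD, n = 5). The RNA helicase gene cgh-1, which protects stored mRNA in oocytes, stood at 2020.4 ± 351 CPM, and the yolk receptor gene rme-2 at 1138 ± 74.4 CPM. The 23 eggshell and fertilization genes held 1.47 ± 0.107%, led by cpg-2, a chondroitin proteoglycan of the eggshell, at 2800.1 ± 316 CPM and by cbd-1, a chitin-binding eggshell protein, at 2623 ± 363 CPM. Genes of the meiotic chromosome axis and synaptonemal complex, 30 in all, held 0.180% and varied little, with a coefficient of variation (CV, the SD over the mean of the 5 libraries) of 1.69% for their summed level.

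The translation machinery held the largest share of any list. The 81 cytosolic ribosomal protein genes held 10.6 ± 1.26% of counts (SD, n = 5) and 23.2% of the TPM, on a median exon length of 532 bases. They filled 65 of the top 100 places by TPM and 42 of the top 100 by CPM. Of the 81, 76 exceeded 100 CPM and 1 was under 1 CPM, and no member held more than 3.03% of the list. The summed share was 10.8%, 12.6%, 9.24%, 9.91% and 10.6% in replicates 1 to 5, highest in replicate 2, where 76 of the 80 members of at least 1 CPM had their highest value. Of all protein-coding genes under 1 kb and of at least 10 CPM, 74.2% were likewise highest in replicate 2. The most abundant by CPM was rpl-3, of the large subunit, at 3239, 3242, 3263, 3231 and 3092 CPM, with a CV of 2.14%.

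The elongation factor gene eef-1A.1 (chromosome III, 6970026 to 6971712), which delivers aminoacyl-tRNA to the ribosome, was first of all genes per length, at 9452 TPM. Its level was 11220.0, 11330.1, 11105, 10717 and 11022 CPM, a CV of 2.11%, so the libraries barely differed. The translocation factor gene eef-2 stood at 4950 ± 192 CPM (SD, n = 5). Chaperone genes held 2.06 ± 0.0607% of counts, with hsp-1, the constitutive Hsp70, at 5190.3 ± 152 CPM and hsp-90 at 3966 ± 156 CPM. Nuclear genes of oxidative phosphorylation and the ADP/ATP carriers held 1.61%, led by the carrier ant-1.1 at 3005 ± 81.9 CPM and the ATP synthase subunit atp-2 at 2576 ± 46.0 CPM. The 33 proteasome genes held 0.965%, and 32 of them exceeded 100 CPM.

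Of 176 cuticle collagen genes, 66 reached 1 CPM, beside 10458 of the 19882 protein-coding genes in all. At 1000 CPM or more stood 15, while 110 stayed under 1 CPM, and the 10 leading genes held 68.6% of the family's counts. In all the family took 3.58 ± 0.747% of counts (SD, n = 5) and 4.70% of the TPM. The leading gene was col-119 (chromosome IV, 8978926 to 8979795), at 4235, 4593, 3099, 3286 and 3399 CPM. Among protein-coding genes of at least 300 bases, its 5577 TPM was exceeded by eef-1A.1 and vit-6. Next came col-140 at 3209 ± 815 and col-122 at 2799 ± 535 CPM. Each of these was highest in replicates 1 and 2, with no overlap with replicates 3 to 5.

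**Figure D2:**
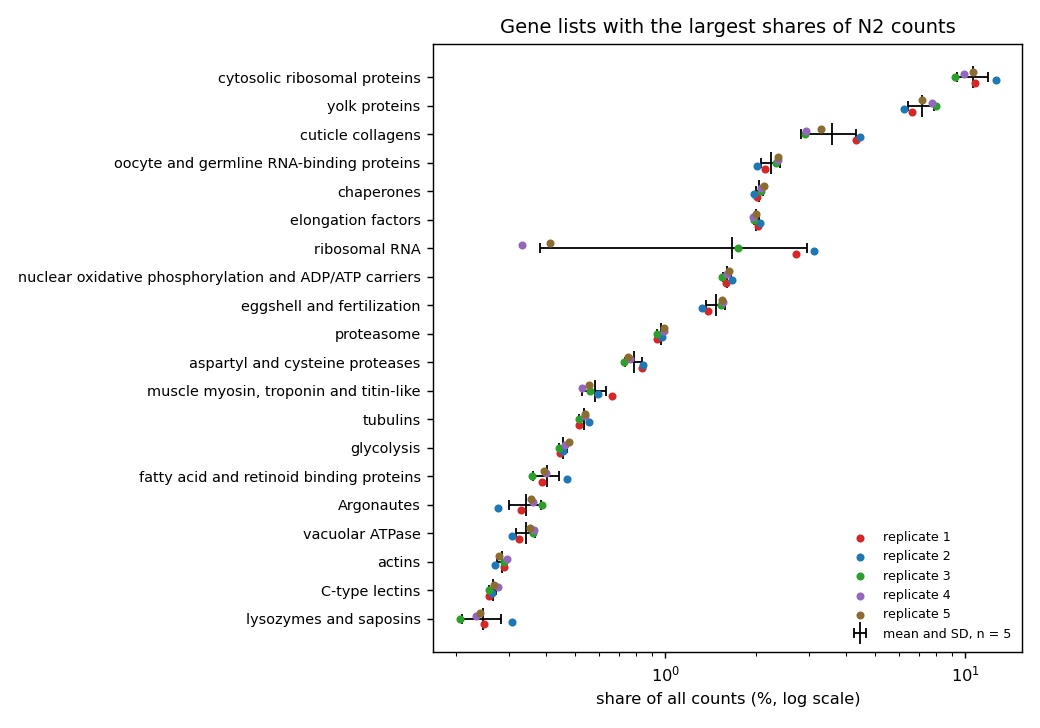
Share of all counts in percent, on a log scale, for the 20 gene lists with the largest shares; coloured points are the 5 N2 libraries and black bars the mean and SD (n = 5). Ribosomal protein genes lead at 10.6%, yolk follows at 7.15% and collagens at 3.58%, and ribosomal RNA has the widest spread, from 0.332% to 3.12%.

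Lists of muscle, protease, lipid-binding and cytoskeletal genes held smaller shares. The 24 genes of muscle myosin, troponin and titin-like proteins held 0.581 ± 0.0527% of counts (SD, n = 5), with the body wall muscle myosin heavy chain unc-54 at 1638, 1144, 1421, 1189 and 1263 CPM, highest in replicate 1. The aspartyl and cysteine proteases were led by the cathepsin L gene cpl-1 at 1283 ± 86.7 CPM and by asp-1, an intestinal marker, at 1239 ± 123 CPM. Pharyngeal markers summed to 102 ± 2.18 CPM. The secreted fatty acid and retinol binding protein gene far-2 was a large product per length, at 4899 TPM. The 17 tubulin genes held 0.533%, of which tbb-2 and tba-2 held 60.1%. Among the 5 actin genes act-2 stood highest, at 1439.6 ± 28.6 CPM, although the near-identical actin coding sequences leave the split among members uncertain.

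Large families of the nervous system and of environmental response held small shares of whole-animal RNA, and their members reached 1 CPM to different extents, beside 10458 of the 19882 protein-coding genes in all. Of 1312 chemoreceptor genes 9 reached 1 CPM, 580 were at 0 in all libraries, and the family held 0.0103% of counts. Its most abundant member, sri-40, was at 40.5 ± 1.09 CPM (SD, n = 5) and held 39.2% of the family's counts. Of 146 neuropeptide genes 81 reached 1 CPM and together they held 0.10%, with nlp-77 at 325 and nlp-40, an intestinal peptide gene that times defecation, at 122.7 CPM. Nuclear hormone receptors held 0.123%, with 138 of 269 at 1 CPM or more, led by nhr-114 at 132 CPM. F-box genes held 0.0849%, with 83 of 328. Among 240 C-type lectins 61 reached 1 CPM, and clec-87, at 808 CPM, held 30.5% of the family's counts. The gene flp-17, which encodes an FMRFamide-like neuropeptide, was at 4.89, 4.59, 3.85, 5.03 and 4.54 CPM, rank 8102, and the G protein-coupled receptor gene egl-6 was at a mean of 5.98 ± 0.635 CPM, rank 7687.

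Histone mRNA was low, at 0.163% of counts for 82 genes, of which 26 reached 1 CPM and 29 were at 0 in all libraries. The leaders were hil-4, a linker histone, at 452 CPM and htz-1, the replication-independent variant H2A.Z, at 347 CPM. Together they held 49.1% of the list.

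By chromosome, the X held the fewest counts and, among genes of at least 1 CPM, the lowest median level per length. Chromosomes I, III and IV held 22.1%, 20.6% and 19.4% of counts, V 13.9% and II 13.6%, and X 10.0 ± 0.427% (SD, n = 5). The yolk genes made up a large part of the X share, since 5 of the 6 lie on X, and without them X held 5.20 ± 0.0848%. Among protein-coding genes of at least 1 CPM, the median on X was 8.15 ± 0.709 TPM, compared with 16.3 on V, 26.3 on II, 26.6 on IV, 39.0 on III and 40.4 on I. The values of X and V did not overlap, as X ranged from 7.10 to 8.89 TPM and the next lowest chromosome, V, from 15.5 to 17.0 TPM. Of the protein-coding genes on X, 55.3% reached 1 CPM, against 37.4% on V and 69.1% on III. Over all protein-coding genes, silent ones included, X was not the lowest, with a median of 1.47 TPM against 0.257 on V and 1.34 on II. On X 89 genes reached 100 CPM, compared with 349 to 504 on each autosome.

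**Figure D3:**
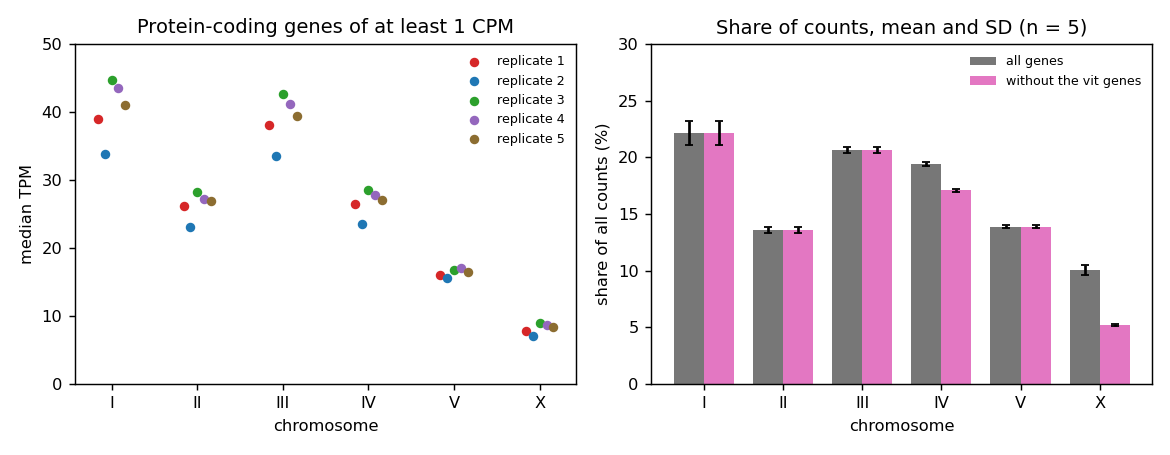
Left, median TPM of protein-coding genes of at least 1 CPM per chromosome, one point for each N2 library. Right, share of counts per chromosome in percent (mean and SD, n = 5), with and without the vit genes; the X points lie between 7.10 and 8.89 TPM, under all autosomes, and the X share falls from 10.0% to 5.20% when the vit genes are left out.

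The spread between libraries was modest for most genes. The median CV over the 10566 genes of at least 1 CPM was 10.4%, and 80% of genes lay between 4.22% and 20.9%. From 1 to 10 CPM the median CV was 13.6%, where counting alone would give 7.85%. From 100 to 1000 CPM it was 8.41% where counting would give 1.06%, so at that level depth was not the limit. A gene was called variable when its highest library was at least 2-fold over its lowest, which held for 438 genes, 4.15% of those tested. Of these, 330 lay between 1 and 10 CPM and 1 at 1000 CPM or more. Without replicate 2 the number was 211. No member of the yolk, ribosomal protein, elongation factor, histone, meiotic, proteasome, chaperone or glycolysis lists was variable. The same held for the vacuolar ATPase, oxidative phosphorylation, tubulin, actin, desaturase, metallothionein and chemoreceptor lists. Among all genes few were variable at such levels, 71 of 4705 from 10 to 100 CPM and 36 of 2044 from 100 to 1000 CPM. Of the genes of at least 1 CPM, 24 of 66 collagens, 24 of 24 major sperm protein genes and 13 of 21 other sperm genes were variable. The minimum was set on the mean over all libraries, so a gene high in a single library could pass it through that library. Many sperm genes did so through replicate 1, and their counts of variable genes are in part fixed by the minimum.

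**Figure D4:**
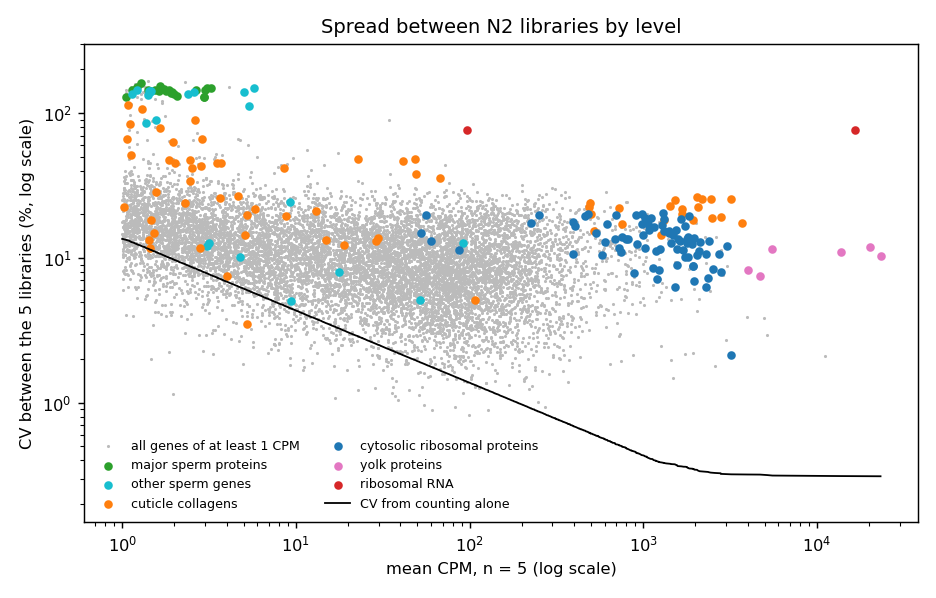
CV between the 5 N2 libraries in percent against mean CPM, both on log scales, for the 10566 genes of at least 1 CPM (grey) with 6 lists coloured; the black line is the CV that counting alone gives. Major sperm protein genes lie above 100% at low levels, ribosomal RNA lies near 77%, collagens lie mostly above the ribosomal protein genes, and most genes above 100 CPM lie well over the counting line.

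The largest spread belonged to sperm genes, and replicate 1 carried it. Major sperm proteins are the cytoskeletal proteins on which nematode sperm crawl, and they are made in developing sperm. Their 31 genes summed to 172.6 CPM in replicate 1 and to 16.9, 23.2, 20.0 and 10.5 CPM in replicates 2 to 5. All 24 members of at least 1 CPM were highest in replicate 1. Most of them reached that mean only through replicate 1, so this count was largely fixed by the minimum. For example, msp-79 was at 5.01 CPM in replicate 1 and 0.334 to 0.364 CPM in the others. The sum was 16.5-fold higher there than in the lowest library, and its CV was 143% with replicate 1 and 30.7% without it. The most abundant member was msp-81 (chromosome IV, 9836034 to 9836417), with 503 counts in replicate 1 and 57, 71, 66 and 38 in the others. Its relative msp-57 had 473 counts against 66, 63, 65 and 32. Copies of this family are near-identical, so single members are uncertain.

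Sperm genes outside the family behaved alike in part. The sperm-specific phosphatase gene gsp-3 was at 4.33 CPM in replicate 1 and 0.243 to 0.690 CPM in the other libraries, and its near copy gsp-4 at 3.88 against 0.277 to 0.557 CPM. The gene ssq-2, of a sperm-specific family, was at 20.8 CPM against 0.988 to 2.58 CPM. Of the 21 members of at least 1 CPM, 13 had replicate 1 at least 2-fold over every other library, and 6 were highest in another library. Members such as gsp-3 and gsp-4 reached that minimum only through replicate 1. Among those without this gap were the most abundant members, spe-39, at 87.2 CPM in replicate 1 and 73.6 to 100.8 CPM elsewhere, and spe-48, at 52.2 against 48.5 to 55.5 CPM. Both were named for sperm defects, and spe-39 also acts in vesicle traffic in other cells. These 2 genes held 62.1% of the counts of the 56 other sperm genes, whose summed CV was 22.9% with replicate 1 and 6.12% without it.

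In total 77 genes, 0.729% of those tested, had replicate 1 alone high, meaning at least 2-fold over the second highest library. The median of their mean levels was 1.45 CPM, close to the minimum of 1 CPM. Some, such as gsp-3, passed the minimum only through replicate 1, and the counts that follow share this limit. Among the 77 were 24 major sperm protein genes, 13 other sperm genes and 39 genes in no list. None of the 77 lay on X, although X carried 14.4% of the protein-coding genes tested, and 41 lay on IV, which carried 16.4%. Across all libraries 64 genes, 0.606%, spread 10-fold or more, of which 61 were highest in replicate 1 and 33 were in the sperm lists. Replicate 5 alone was low for 17 genes, 0.161%, and all 17 were also among the 77. Beside this, the oocyte markers of replicate 1 summed to 3485 CPM, within the 3177 to 4014 CPM of the others, and its germline markers to 1971 CPM, within 1726 to 2086 CPM. Its 3 body wall muscle markers summed to 2143 CPM, over the 1528 to 1919.8 CPM of the others, and its 4 intestinal markers to 1714 CPM, over 1449 to 1597 CPM. Most of the muscle sum was unc-54, at 1638 CPM in replicate 1 against 1144 to 1421 CPM. The other muscle markers, unc-15 at 452 CPM and myo-3 at 52.6 CPM, were close to replicate 3, at 447 and 51.8 CPM. Most of the intestinal sum was asp-1, at 1431 CPM in replicate 1 against 1092 to 1237 CPM. The other intestinal markers did not follow. Replicate 1 was the lowest for ges-1, and for elt-2 and cpr-1 it lay within the range of the others. The 4 male markers summed to 0.473 CPM in replicate 1 and to 0.0347 to 0.188 CPM in the others, on 7, 6, 2 and 5 counts for cwp-1, cwp-2, lov-1 and pkd-2. Their part in the sperm result was not tested.

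Of the 77 genes, 1 exceeded 10 CPM. This was asp-12 (chromosome V, 8269210 to 8272056), an aspartyl protease gene, at 88.9 CPM in replicate 1 and 25.3, 20.6, 15.9 and 21.4 CPM in the others. It had the highest CV, 89%, of all genes of at least 10 CPM. The secreted aspartyl protease-like gene hrg-7, which takes part in heme signalling between tissues, was likewise highest in replicate 1, at 127 CPM against 51.1 to 68.6 CPM. The gene acs-2, an acyl-CoA synthetase of fatty acid oxidation known to rise on fasting, ran the other way, at 17.4, 32.5, 29.5, 51.8 and 42.8 CPM, lowest in replicate 1.

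Ribosomal RNA varied on another axis. The large-subunit gene rrn-3.1 (chromosome I, 15064838 to 15068346) was at 27422, 30869, 17521, 3249 and 4114 CPM, high in replicates 1 to 3 and low in replicates 4 and 5. The small partner rrn-2.1 gave 161, 167, 122.7, 17.1 and 17.7 CPM in the same order. The other 18 ribosomal RNA genes listed were at 0. Poly(A) selection is meant to remove these transcripts. The gene is a repeat in the genome, so its count stands for the array as far as reads were assigned to it.

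Transcript length ordered the remaining difference between replicates 2 and 3. For protein-coding genes of at least 10 CPM, the deviation of each library from the gene's own mean was taken on the log2 scale. The 1596 genes under 1 kb had a median deviation of 0.19 in replicate 2 and -0.13 in replicate 3, and the 550 genes of 4 kb or more had -0.38 in replicate 2 and 0.26 in replicate 3. Replicates 1, 4 and 5 stayed between -0.04 and 0.08 in every length class. Among the longest genes, 96.4% were lowest in replicate 2 and 92.2% were highest in replicate 3. Of these, 11.1% were variable, against 0.564% of genes under 1 kb.

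Long members of several lists were lowest in replicate 2 and highest in replicate 3. The muscle giant unc-22, which encodes twitchin, was at 79.7 CPM in replicate 2 and 178 CPM in replicate 3, on an exon length of 23368 bases. The oocyte regulator lin-41 was at 168 and 415 CPM, and the poly(A) polymerase gene gld-2 at 155 and 324 CPM. The patched-related gene ptc-1 was at 492 and 1004 CPM. At the short end, 66 of 81 neuropeptide genes and 34 of 43 transthyretin-related genes of at least 1 CPM were highest in replicate 2, as were 74.2% of all protein-coding genes under 1 kb and at least 10 CPM. Among Argonaute genes, with a median length of 3218 bases, 13 of 17 were highest in replicate 3, as were 60.5% of all such genes of 2 to 4 kb. An exception was apc-17, of the anaphase-promoting complex, which was at 12.0 CPM in replicate 2 and 33.5 CPM in replicate 3 on a length of 1074 bases. The ribosomal RNA share, 3.12% in replicate 2 and 1.74% in replicate 3, was above that of replicates 4 and 5 in both, and its part in the length pattern was not tested.

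When each library was centred on the median of 20 classes of length, an alternative chosen after seeing the data, 306 genes were variable, 2.91% of 10528, and 262 of them were shared with the 438. None of the protein-coding genes of 4 kb or more and at least 10 CPM remained variable, which the centring favours by construction. The CV of the summed level, over the members of at least 1 CPM with a length, was lower than before in 27 of 39 lists and higher in 12. That of the ribosomal protein genes went from 11.6% to 3.22% and that of the yolk genes from 10.4% to 7.96%. That of the collagens went from 20.9% to 17.4%, and that of the major sperm protein genes from 142.4% to 139.8%. Among the lists with a higher value were C-type lectins, from 2.22% to 4.52%, elongation factors, from 2.53% to 4.63%, muscle genes, from 9.74% to 11.7%, and ribosomal RNA, from 76.96% to 85.6%.

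**Figure D5:**
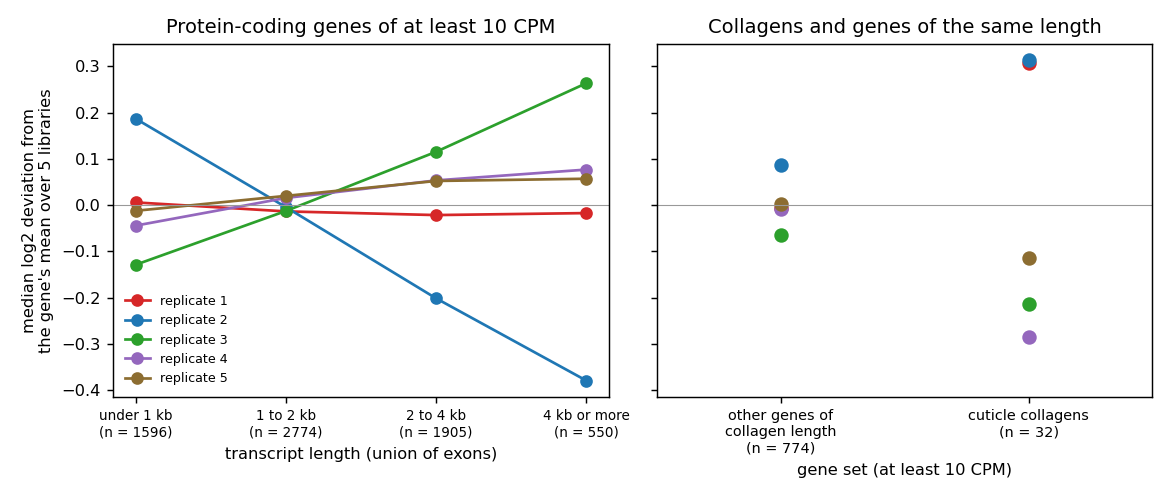
Left, median log2 deviation of each N2 library from the gene's mean, by class of exon length, for protein-coding genes of at least 10 CPM. Right, the same for 32 cuticle collagens and 774 other genes of the same lengths; replicate 2 goes from 0.19 to -0.38 and replicate 3 from -0.13 to 0.26 with length, and the collagens are at 0.31 in replicates 1 and 2 and under 0 in replicates 3 to 5.

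Collagens departed from other genes of their length. The 32 collagens of at least 10 CPM had median log2 deviations of 0.31, 0.31, -0.21, -0.28 and -0.11 in replicates 1 to 5. The 774 other protein-coding genes of the same length range had -0.01, 0.09, -0.07, -0.01 and 0.00. By these medians the collagens split into replicates 1 and 2, high, and replicates 3 to 5, low. Of the 66 collagens of at least 1 CPM, 24, or 36.4%, were variable, against 4.15% of all genes tested. Highest in replicate 1 or 2 were 59 of the 66, with 20 in replicate 1 and 39 in replicate 2. Replicate 2 was also highest for 74.2% of protein-coding genes under 1 kb and 30.3% of those of 1 to 2 kb, at 10 CPM or more. The share of all genes highest in replicate 1 or 2 was not counted, so these counts and those below lack that background. This split was not particular to collagens. Of 20 aspartyl and cysteine protease genes, 19 were highest in replicate 1 or 2, with median deviations of 0.16, 0.15, -0.08, -0.09 and -0.05. Also highest in replicate 1 or 2 were 19 of 24 muscle genes (12 and 7), but 0 of 21 vacuolar ATPase genes. Among the 20 most spread genes of at least 10 CPM were the collagens col-81, col-129, col-139, col-159 and col-142. For col-129 the levels were 84.5, 58.1, 41.4, 25.1 and 34.3 CPM, and for col-139 they were 67.6, 55.0, 33.9, 19.9 and 30.2 CPM. Among less abundant collagens, dpy-13, needed for normal body shape, was at 3.29 CPM in replicate 2 and 0.295 to 0.735 CPM in the others, and col-77 at 3.76 against 0.509 to 0.913 CPM.

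Replicate 2 alone was high for 10 genes, 0.0946% of those tested, of which 6 were collagens. Of these collagens, dpy-13 and col-77 reached a mean of 1 CPM only through replicate 2. Another pair encodes antimicrobial peptides of the epidermis that are induced by fungal infection and wounding. Of these, nlp-29 (chromosome V, 3984425 to 3984847) was at 3.43, 10.4, 2.87, 3.96 and 3.33 CPM, and nlp-31, its neighbour, at 4.47, 11.0, 3.79, 3.64 and 3.57 CPM. The uncharacterized gene C06B3.6 was at 23.0 CPM in replicate 2 and 6.79 to 9.88 CPM in the other libraries. No gene had replicate 3, 4 or 5 alone high. A single low library was rarer outside replicate 5, with 3 genes for replicate 1, 2 for replicate 2 and 1 for replicate 4, which are 0.0284%, 0.0189% and 0.00946% of those tested.

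At the other end, 1529 genes, 14.5% of those tested, had a CV under 5%. The 10 steadiest genes of at least 100 CPM had CVs from 0.886% to 1.37%, close to what counting gives. The mitochondrial apoptosis-inducing factor homolog wah-1 was at 127, 128, 127, 130 and 127 CPM, with a CV of 0.886% where counting gives 1.21%. The aldehyde dehydrogenase gene alh-1 was at 269, 275, 269, 269 and 270 CPM. Others were ipgm-1, a phosphoglycerate mutase of glycolysis, orc-1 of the origin recognition complex, smg-6 of nonsense-mediated decay, leo-1 of the PAF complex and ints-13 of the Integrator complex. These were chosen for their low spread, which is here a description.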

How the data were processed

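Poly(A) RNA of whole animals was sequenced on an Illumina instrument. The submitters' processing notes name the aligner STAR 2.7.11b and the genome build ce11. What the authors deposited is a table of whole-number counts, not normalized. How reads were assigned to genes, with which annotation and whether by strand, is not given in the sources used here, which leaves genes on opposite strands of 1 locus, genes that overlap and close copies uncertain.

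The 5 N2 columns were used. CPM were computed on library sizes scaled by TMM factors from edgeR 4.0.16 in R 4.3.3 over the 12609 genes passing its filter (a minimum of 10 counts after scaling and of 15 in total). Shares are percent of raw counts. TPM divide by the union of exons in the Ensembl 115 annotation, a match of 40181 genes by symbol, 1304 by RefSeq name and 931 by sequence name; 116 names, with 0.374% of counts, stayed unmatched. Log2 deviations used a pseudocount of 0.5 CPM. Tables and figures were made with pandas 2.3.3, numpy 2.4.6 and matplotlib 3.10.9 in Python 3.11.15. The calls of a single high library and the CV were checked on simulated data. Only genes above the minimum level were raised there, so detection of changes near that minimum was not checked.

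There is 1 group, so no hypothesis test was run. Named genes are the 25 highest by CPM, the 10 highest by TPM among protein-coding genes of at least 300 bases, the 20 with the largest CV at 10 CPM or more, the 10 with the smallest at 100 CPM or more, from each list the 2 highest and the 2 with the largest CV, flp-17, egl-6 and the stage and cell type markers. The members and the lists were chosen with earlier results of these data known. Alternatives tried were other scaling, other minimum levels and folds, per-length units, leaving out ribosomal RNA, each library in turn, and centring by length.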

Additional observations from a re-analysis of the deposited data

Results flagged for a closer look

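Among 258 lists and genes named by rule, 27 had 1 library far from the other 4, by the ratio of its gap to the nearest library over the whole range. Chance flags about 1 in 20 such sets, but many of these genes were named for a large or a small spread and genes of a family are not independent, so the number of flags cannot be read against that rate. Replicate 1 stood high for 11. For the summed major sperm protein genes the ratio was 0.922 and for the summed other sperm genes 0.783. Among single genes it was 0.994 for msp-79, 0.95 for msp-49, 0.92 for msp-57, 0.918 for msp-81, 0.92 for ssq-2, 0.922 for gsp-4 and 0.89 for gsp-3. It was 0.87 for asp-12 and 0.769 for hrg-7.

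Replicate 2 stood high for 12. The ratio was 0.879 for nlp-31, 0.856 for nlp-29, 0.876 for col-77 and 0.853 for dpy-13. For F45D3.4, F45D3.3 and C06B3.6 it was 0.812, 0.829 and 0.809. For the transthyretin-related genes ttr-21 and ttr-26 it was 0.746 and 0.771, for the pharyngeal troponin gene tnt-4 0.811, for cpl-1 0.768 and for alh-1 0.909. Replicate 2 stood low for rme-2, with 0.713. Replicate 4 stood high for orc-1 and wah-1, with 0.876 and 0.737, and replicate 5 low for rpl-3, with 0.811. The ranges of alh-1, orc-1, wah-1 and rpl-3 are small, since these genes have CVs of 0.931%, 1.32%, 0.886% and 2.14%.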

How the results depend on the processing

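Of 438 variable genes, 141 were left at a minimum of 5 CPM and 108 at 10 CPM, and 8062 were called with no minimum. A fold of 1.5 gave 2342 and a fold of 3 gave 124. Leaving out each library in turn gave 211 (without replicate 2) to 419. The genes holding 50% of the total, 488 by counts, were 261 by TPM and 264 by TPM on the longest transcript, and 476 to 506 with a library left out. The yolk share of 7.15% became 1.89% and 1.88% of TPM on these lengths, with 6.94% to 7.38% over left-out libraries. The ribosomal protein share of 10.6% became 23.2% of TPM on both, with 10.1% to 11.0% over left-out libraries. The collagen share of 3.58% became 4.70% and 4.67% of TPM, with 3.37% to 3.75%. The X median of 8.15 TPM was 1.47 TPM over all protein-coding genes, where V (0.257 TPM) and II (1.34 TPM) were lower than X, and 7.96 to 8.41 with a library left out. Leaving out each library gave 10493 to 10604 genes of at least 1 CPM, a median CV of 7.40% to 10.9% and an X share of 9.91% to 10.2%. Leaving out ribosomal RNA gave 514 genes for 50% of counts. Plain library totals and size factors of the other type gave 427 and 437 variable genes. No gene of the table matched the list of mitochondrially encoded mRNAs, so that list was empty and leaving them out gave no value. Shares of counts given here are therefore shares of the genes in the table. No paired analysis was possible because 1 genotype was described and the results come from no test. Depth limits the values under about 10 CPM in part. From 1 to 10 CPM counting alone would give a median CV of 7.85%, beside the 13.6% found.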

Other observations

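Detoxification genes held small shares, 0.0623% of counts for cytochrome P450 and 0.0570% for glutathione S-transferase genes. Of 74 cytochrome P450 genes 41 reached 1 CPM, beside 10458 of the 19882 protein-coding genes in all, and the median of the 74 was 1.28 CPM. They were led by cyp-31A2 and cyp-31A3, which act in eggshell lipid formation, at 125 and 95.2 CPM. These 2 genes are near copies of each other. Among the cytochrome P450 genes cyp-29A4 was at 1.63, 1.87, 3.43, 5.30 and 4.59 CPM, lower in replicates 1 and 2 than in the others. The gene cyp-35D1 was at 2.17 CPM in replicate 1 against 0.590 to 1.19 CPM. Of 49 glutathione S-transferase genes 25 reached 1 CPM, with a median of 1.11 CPM over the 49, led by gst-1 at 202 CPM. The desaturase genes fat-2 and fat-1, of polyunsaturated fatty acid synthesis, stood at 383 ± 13.4 and 274 ± 12.0 CPM (SD, n = 5). The 20 Argonaute genes held 0.343% of counts, and wago-1 and hrde-1, germline small RNA pathway members, stood at 1006 and 624 CPM.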
